A study of Homo sapiens with 24 samples.

Results

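CDK inhibitors are proteins that bind or dephosphorylate cyclin-dependent kinases (CDKs) and so restrain progression through the cell cycle. The transcripts of 5 of them, CDKN1A (ENSG00000124762), CDKN1B (ENSG00000111276), CDKN2C (ENSG00000123080), CDKN2D (ENSG00000129355) and CDKN3 (ENSG00000100526), were followed in K562 cells over a time series of the Human Cell Cycle dataset. The genes were chosen by name, and 5 of 5 were found among the 12285 genes of the expression table. K562 is an established human leukaemia line that grows in suspension and has erythroid features. The cells were cultured in RPMI medium with 10% BCS and penicillin and streptomycin, and a synchronous population was collected by centrifugal elutriation, which separates cells by size. RNA was sequenced at 24 time points every 2 h from 0 h to 46 h after elutriation, with 1 sample per time point and no other treatment. The labels do not say whether the time points came from 1 culture. Time points are not replicates, and neighbouring ones may not be independent. The p-values below measure only the spread between time points or, where time points were put in random orders, their order in time.

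The inhibitors fall into families with different targets. CDKN1A (p21) and CDKN1B (p27) are CIP/KIP proteins, which bind complexes of cyclins with CDK2 and other kinases. CDKN2C (p18) and CDKN2D (p19) are INK4 proteins, which bind CDK4 and CDK6 and keep them from pairing with D-type cyclins. CDKN3 is a phosphatase that removes the activating phosphate from CDK2. In proliferating cells CDKN1B is controlled to a large part by destruction of the protein, and CDKN1A is induced in many settings in which cells stop dividing.

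The promoters of CDKN3 and CDKN2C are shown because these were the most abundant inhibitors. Sequences are those of RefSeq on GRCh38.p14, from 250 bases before to 50 bases after an annotated start, and each of the 5 inhibitors matched an entry. Capitals mark matches, on either strand, to the CHR element TTTGAA, to a box of the letters CCAAT or to an E2F motif. The E2F motif was searched as TTCCCGC or TTGGCGC or TTCGCGC or TTGCCGC. CDKN3 lies at chr14:54396757-54397056 on the + strand, and of the 3 annotated starts of CDKN2C the one shown, which is the one with E2F matches, lies at chr1:50968456-50968755 on the + strand.
CDKN3: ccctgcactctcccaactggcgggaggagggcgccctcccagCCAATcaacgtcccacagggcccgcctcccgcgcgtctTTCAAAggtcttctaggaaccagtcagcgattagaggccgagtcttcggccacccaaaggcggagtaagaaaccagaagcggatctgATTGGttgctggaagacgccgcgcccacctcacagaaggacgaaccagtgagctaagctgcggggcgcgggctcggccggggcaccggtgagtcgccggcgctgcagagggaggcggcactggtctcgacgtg
CDKN2C: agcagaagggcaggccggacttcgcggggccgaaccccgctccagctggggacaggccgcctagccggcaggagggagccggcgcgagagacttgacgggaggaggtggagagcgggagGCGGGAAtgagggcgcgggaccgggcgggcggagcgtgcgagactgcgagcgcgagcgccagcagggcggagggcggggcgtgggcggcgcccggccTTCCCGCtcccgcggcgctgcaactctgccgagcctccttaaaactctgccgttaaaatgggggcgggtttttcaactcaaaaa
The CDKN3 promoter held 1 CHR element, beginning 170 bases before the start, and 2 CCAAT boxes at 208 and 83 bases. The CDKN2C promoter shown held 2 E2F motifs, at 131 and 34 bases, and neither a CHR element nor a CCAAT box, while of its other starts 1 held a CCAAT box and 1 held none of the motifs. The marked matches did not overlap. Of 35116 promoters of the same length, 15.2% held a CHR element, 34.6% a CCAAT box and 13% an E2F motif, a share that cannot be set against a CDKN2C start picked for its matches. The CDKN1B promoter held 3 CCAAT boxes and the CDKN2D promoter held 1, whereas the CDKN1A promoter held none of these motifs. A TATA box (TATAAA), present in 11.5% of promoters, was found in none of them. These matches describe letters in a window and were not tested as binding sites.

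Levels were given by the authors as FPKM, which scales the fragments of a gene to the length of its transcript and to the size of the library. Summed FPKM ranged from 456791 to 591309 per time point, and the depth in reads is unknown. At 16 h and 18 h, time points that the study treats as anomalous across the transcriptome, 102 and 115 genes were listed at 0, compared with 4 to 58 genes elsewhere. Levels are therefore given over the other 22 time points unless stated, and 16 h and 18 h are described on their own. All 15 erythroid markers were in the table, and their summed level ranged from 6329 to 9486 FPKM. Of the markers of other cells, 2 of 7 lymphoid, 2 of 8 fibroblast and 1 of 7 myeloid genes were present, with summed levels of at most 14.1, 10.3 and 28.2 FPKM, respectively.

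CDKN2C and CDKN3 were the most abundant inhibitors, CDKN1B was intermediate, and CDKN2D and CDKN1A were low. CDKN2C averaged 31.6 ± 4.77 FPKM (SD over 22 time points). CDKN3 averaged 28.6 ± 5.28 FPKM, and CDKN2C was the higher of the pair at 11 of 22 time points, so their order could not be told. CDKN1B averaged 15.3 ± 1.39 FPKM and lay below CDKN3 at 21 of 22 time points. CDKN2D averaged 2.58 ± 0.41 FPKM, below CDKN1B at every one of the 22. CDKN1A averaged 1.95 ± 0.47 FPKM and was lower than CDKN2D at 20 of 22 time points. Among all genes, the mean level of CDKN1A over the 24 time points stood at the 9.95th percentile and that of CDKN2C at the 72.0th percentile. CDKN1C (p57), the other family member in the table, averaged 10.6 ± 1.5 FPKM. CDKN2A and CDKN2B were not found in the table and were not analysed here.

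The 5 inhibitors differed in how much they varied. The coefficient of variation was 9.06% for CDKN1B, 15.1% for CDKN2C, 15.9% for CDKN2D, 18.5% for CDKN3 and 24.1% for CDKN1A, compared with a median of 14.2% over 12249 genes. CDKN1B was the steadiest, with a lowest value of 13.2 FPKM, a median of 14.9 and a highest value of 17.8. The summed level of the 5 inhibitors lay between 74.1 and 90.5 FPKM, but its composition shifted. CDKN2C made up between 31.9% and 49.6% of the sum, and CDKN3 between 22.4% and 43.6%.

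**Figure D1:**
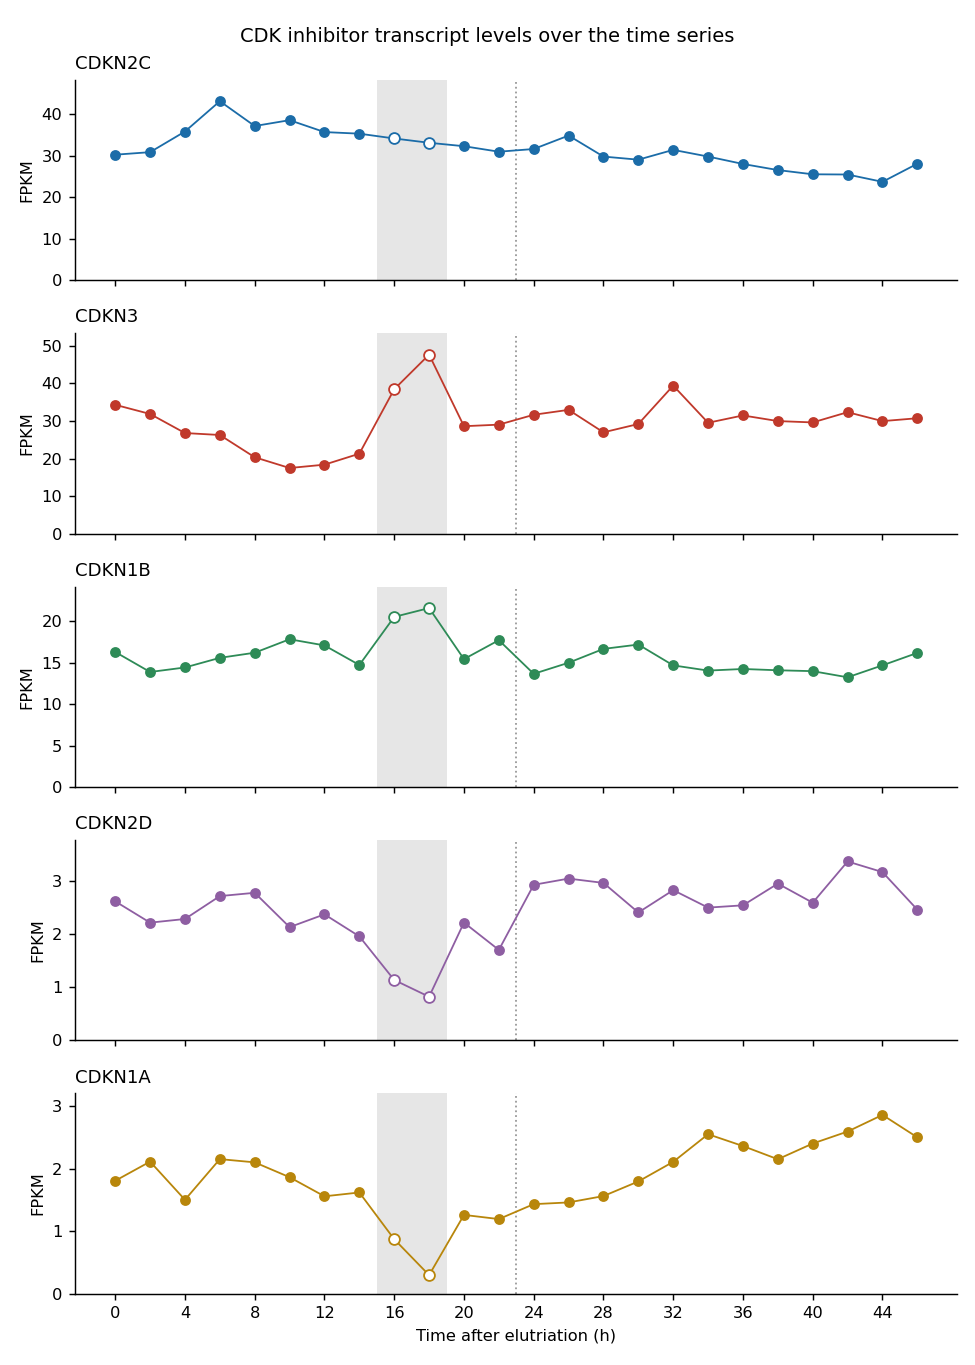
FPKM of the 5 CDK inhibitors (1 panel each, axis from 0) against time after elutriation in h. Points are single libraries, open points on grey are 16 h and 18 h, and the dotted line parts the days. CDKN2C is highest at 43.2 FPKM at 6 h, CDKN3 is lowest at 17.5 FPKM at 10 h, and CDKN1A is highest at 2.86 FPKM at 44 h.

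Among the INK4 genes, CDKN2C was highest early in the series and lowest near its end. From 30.3 FPKM at 0 h it reached a maximum of 43.2 FPKM at 6 h. By 14 h it stood at 35.3 FPKM, and by 22 h at 31.0 FPKM. On the second day it was 34.9 FPKM at 26 h and had its minimum of 23.7 FPKM at 44 h. CDKN2D ranged from 1.70 FPKM at 22 h to 3.36 FPKM at 42 h, with a median of 2.56 FPKM. Its low at 22 h was not approached by the neighbours, 2.22 FPKM at 20 h and 2.93 FPKM at 24 h.

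Among the CIP/KIP genes, CDKN1A was lowest at the end of the first day and highest late on the second. Starting from 1.81 FPKM at 0 h, it stood at 2.15 FPKM by 6 h, at 1.26 FPKM by 20 h and at 1.20 FPKM by 22 h. From 1.43 FPKM at 24 h it then went to 2.11 FPKM by 32 h and to its maximum of 2.86 FPKM at 44 h. The library at 22 h also held the minimum of CDKN2D and of CDKN1C, and of genes outside the family such as GATA1 and BAX. How many of all genes had their minimum there was not counted, and the part of this library in these lows was not tested. CDKN1B reached 17.8 FPKM at 10 h and again 17.7 FPKM at 22 h, with 14.7 FPKM at 14 h between them. On the second day its highest value was 17.2 FPKM at 30 h, and its lowest value was 13.2 FPKM at 42 h.

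CDKN3 had its low values in the middle of the first day. It went from 34.3 FPKM at 0 h to 26.3 at 6 h and 17.5 at 10 h, and was back at 28.6 FPKM at 20 h. On the second day it stayed between 27.0 FPKM at 28 h and 33.0 FPKM at 26 h, apart from 39.4 FPKM at 32 h. The value at 32 h was the highest of the 22 and was not approached by its neighbours, 29.2 FPKM at 30 h and 29.5 FPKM at 34 h. By visual inspection the paper lists 32 h as a mild anomaly.

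A 24 h cycle was not detected for any of the inhibitors. With the JTK statistic, which ranks how well a gene follows a cosine in time over all 24 time points, 0 of 5 inhibitors passed, compared with 1460 of 12285 genes (11.9%). The adjusted permutation p was 0.241 for CDKN2C, 0.350 for CDKN3, 0.684 for CDKN1A, 0.729 for CDKN2D and 0.978 for CDKN1B, and 0 of 5 had an unadjusted permutation p under 0.05. When a 24 h harmonic with a linear term was fitted with limma to log2(FPKM + 1) at 22 time points, 0 of 5 passed, compared with 1847 of 12253 genes (15.1%), and 1 of 5, CDKN3, had an unadjusted p under 0.05. The amplitude of CDKN3 on the log2 scale was 0.22 ± 0.06 (SE), with a fitted peak at 1.25 h (adjusted p = 0.0527). It passed under some of the alternatives, with adjusted p from 0.0288 with a 28 h period to 0.0496 with upper-quartile scaling, and over all 11 alternatives the adjusted p ran up to 0.186. CDKN2C had an amplitude of 0.09 ± 0.04 (adjusted p = 0.194), and the other three had amplitudes of at most 0.08. With all 24 time points CDKN2D reached 0.23 (adjusted p = 0.0830) and CDKN1A 0.21 (adjusted p = 0.202), and with a 28 h period CDKN1A reached 0.19 (adjusted p = 0.0791), so that neither passed. The median amplitude over all genes was 0.10.

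The linear term of the same fit gave the drift over the series. How many of all genes passed for this term was not counted, so no share stands beside the calls. The drift rests on most of the time points used for the comparison between days below and is not separate evidence. CDKN2C fell by 0.23 ± 0.05 per day on the log2 scale (limma, adjusted p = 0.00178), and CDKN3 rose by 0.26 ± 0.08 per day (adjusted p = 0.0195). The slopes of CDKN1A (0.19 ± 0.08, adjusted p = 0.0830), CDKN2D (0.16 ± 0.07, adjusted p = 0.0616) and CDKN1B (-0.05 ± 0.05, adjusted p = 0.517) did not pass. The drift of CDKN2C passed in all 10 alternatives of this fit, a comparison added after seeing the data, but which of the others passed depended on the time points and the period. With all 24 time points the slope of CDKN3 was 0.13 (adjusted p = 0.390), whereas CDKN1A at 0.33 (adjusted p = 0.0396) and CDKN2D at 0.28 (adjusted p = 0.0299) passed. CDKN3 was also lost with a 20 h period (0.19, adjusted p = 0.0712), and CDKN1A passed with a 28 h period (0.21, adjusted p = 0.0207). Over their alternatives the adjusted p ran from 0.00275 to 0.390 for CDKN3, from 0.0207 to 0.160 for CDKN1A and from 0.0299 to 0.149 for CDKN2D.

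**Figure D2:**
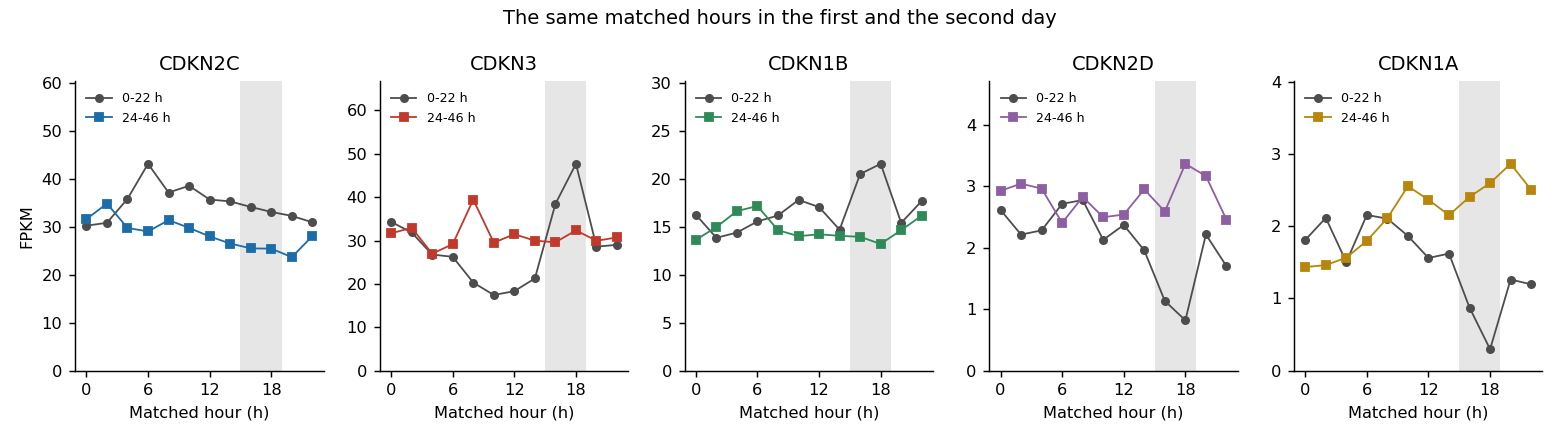
FPKM of each inhibitor at the same matched hour of the first day (grey circles, 0-22 h) and the second day (coloured squares, 24-46 h), with 16 h and 18 h and their matches on grey. Each point is a single library. CDKN2C is lower on the second day at 8 of the 10 hours outside the grey band, and CDKN2D and CDKN3 are higher at 9 of 10.

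To ask whether levels differed between the cycles, time points 24 h apart were compared at the 10 matched hours that leave out 16 h, 18 h and their matches. CDKN2C was lower on the second day. Its first-day values had a lowest of 30.3, a median of 35.5 and a highest of 43.2 FPKM, and its second-day values were 23.7, 29.4 and 34.9 FPKM. The groups overlapped, but 8 of 10 matched hours were lower on the second day. The difference was -0.25 ± 0.068 on the log2 scale (limma with matched hour as a block, adjusted p = 0.0226). Without the matched hours 6, 8, 16 and 18 it was -0.21 (adjusted p = 0.0729), the highest p of 9 alternatives, which went down to 0.0116.

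CDKN2D was higher on the second day. The first-day values had a lowest of 1.70, a median of 2.25 and a highest of 2.77 FPKM, and the second-day values 2.40, 2.88 and 3.16 FPKM. The difference was 0.20 ± 0.066 (adjusted p = 0.0496). At this low level the call was marginal, and it was lost with a pseudocount of 0.1 FPKM (0.27, adjusted p = 0.0510), median centring (0.17, adjusted p = 0.0883) and upper-quartile scaling (0.20, adjusted p = 0.0506). Over 8 alternatives its adjusted p ranged from 0.0245 to 0.0883. So 1 of 5 inhibitors was called higher and 1 of 5 lower, compared with 12.6% and 7.04% of all 12253 genes.

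CDKN3 differed by 0.31 ± 0.10 and missed the threshold (adjusted p = 0.0508). Over all 12 matched hours, 16 h and 18 h included, its difference was 0.18 (adjusted p = 0.319), while that of CDKN2D was 0.33 (adjusted p = 0.0432) and that of CDKN1A 0.34 (adjusted p = 0.120). Its median was 26.5 FPKM on the first day and 30.4 FPKM on the second, and 9 of 10 matched hours were higher on the second. It passed with upper-quartile scaling (adjusted p = 0.0489) and without the block (adjusted p = 0.0407), with the 0.319 over all matched hours as the highest of 9 alternatives. The differences of CDKN1A (0.17 ± 0.11, adjusted p = 0.284) and CDKN1B (-0.08 ± 0.058, adjusted p = 0.379) did not pass, with 7 of 10 and 3 of 10 matched hours higher on the second day. The median difference over all genes was 0.01. Other transcripts moved with the day too. Of 15 erythroid markers 4 were lower and 1 was higher, with ALAS2, the erythroid enzyme of haem synthesis, at -0.56 ± 0.060 (adjusted p = 0.000147), and the 1 myeloid marker present, LYZ, was higher by 0.85 ± 0.073 (adjusted p = 3.77e-05), as were the 1 lymphoid marker tested, CD3D, by 0.59 ± 0.11, and 1 of 2 fibroblast markers. The defining genes CD3E, MS4A1, CD14 and COL1A1 were not found in the expression table, whose genes had at least 1 FPKM at 12 or more time points. The part of the markers that moved with the day in the differences of the inhibitors was not tested.

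The shape of the 24 h curve was then compared between days with limma (an F test of the interaction of day and harmonic at 22 time points), a comparison added after the values had been seen. This fit had a step between days but no linear term, so a drift within a day can be fitted as part of a curve. The curve differed for 2 of 5 inhibitors, compared with 594 of 12253 genes (4.85%). For CDKN3 the amplitude was 0.39 on the first day and 0.02 on the second (adjusted p = 0.00906). For CDKN1A the amplitudes were alike, 0.21 and 0.24, but the fitted peak stood at 6.48 h on the first day and at 15.6 h of the second (adjusted p = 0.0491). Its second-day values went from 1.43 FPKM at 24 h to 2.86 FPKM at 44 h. A drift within the day and a shifted peak cannot be told apart here. CDKN2C (adjusted p = 0.149), CDKN2D (0.271) and CDKN1B (0.323) did not pass. The CDKN3 call was lost when 16 h and 18 h were included (adjusted p = 0.0758), and the CDKN1A call was lost when 6 h and 32 h were left out as well (adjusted p = 0.0534). Over 6 alternatives the adjusted p went down to 0.00323 for CDKN3 and to 0.0216 for CDKN1A.

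Cell-cycle gene lists gave the phase of the culture. The mean centred log2 level of 41 S-phase genes was highest at 2 h (0.20) and at 26 h (0.14) and lowest at 14 h and 36 h. The mean of 51 G2/M genes was lowest at 4 h (-0.53) and highest at 22 h (0.30), and on the second day it stayed between 0.03 and 0.21. Of the S-phase list 24 of 41 genes were called for a 24 h rhythm, led by CCNE2 (amplitude 0.37 ± 0.08) and CLSPN, a replication checkpoint adaptor (0.32 ± 0.05). Of the G2/M list 3 of 51 were, while 24 of 51 had a curve that differed between days. CDKN3 lay at its minimum at 10 h, when the S-phase mean was -0.08 and the G2/M mean -0.15. Over the 10 time points of the first day, CDKN3 correlated with the S-phase mean at Pearson r = 0.53 and with the G2/M mean at r = 0.05. Over the 12 of the second day the values were r = 0.03 and r = 0.34. By rank, the second-day value for the G2/M mean was rho = -0.03, and the 32 h library held the second-day maximum of both. CDKN2C correlated with the S-phase mean at r = 0.05 on the first day (10 time points) and at r = 0.63 on the second (12 time points). CDKN1A did so at r = 0.34 and r = -0.76. With the G2/M mean, CDKN2C was at r = -0.35 on the first day and r = 0.004 on the second. Over all 22 time points it was at r = -0.52 (rho = -0.55). CDKN1A was at r = -0.68 with the G2/M mean on the first day and r = 0.31 on the second. These points share libraries and neighbouring times.

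**Figure D3:**
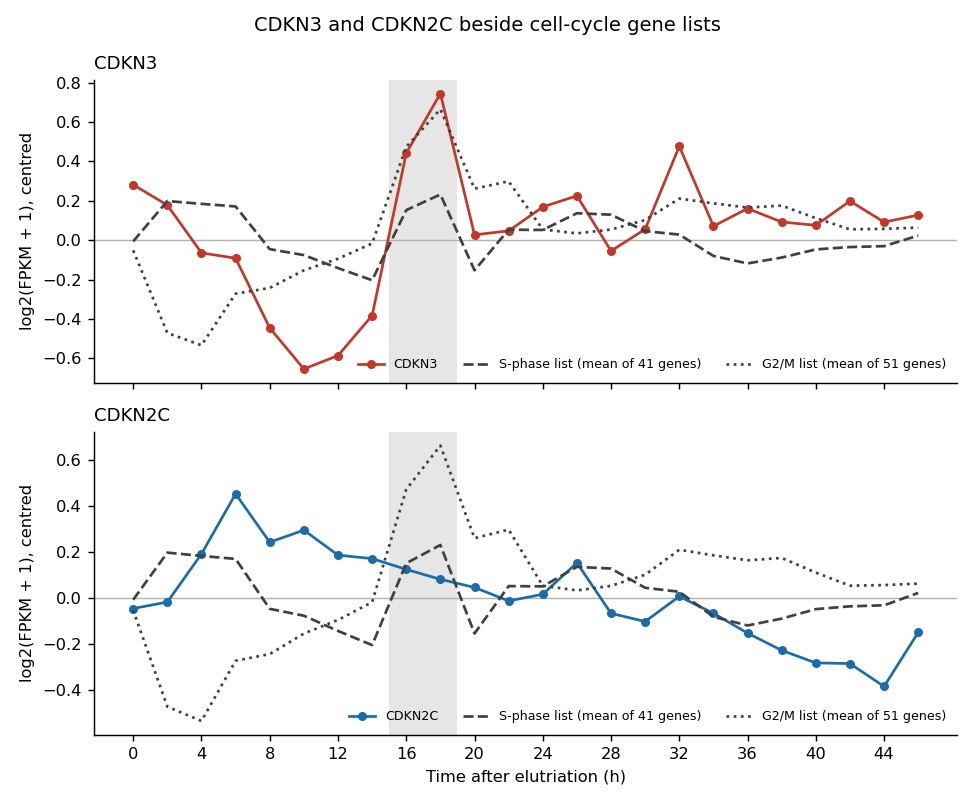
Centred log2(FPKM + 1) of CDKN3 (top) and CDKN2C (bottom) against time in h, with the mean of 41 S-phase genes (dashed) and 51 G2/M genes (dotted), 16 h and 18 h on grey. CDKN3 is at its low at 10 h while the G2/M mean is already rising from its own low of -0.53 at 4 h.

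The inhibitors did not move as a group. Over 22 time points, CDKN2C and CDKN3 were inversely correlated (Pearson r = -0.56, Spearman rho = -0.54), as did CDKN1B and CDKN3 (r = -0.50, rho = -0.52). The highest positive value was that of CDKN1A and CDKN2D (r = 0.47, rho = 0.37). Among the 7147 other genes averaging 10 FPKM or more, the 3 most like CDKN2C were RNF187 (r = 0.94), B4GALT3, a galactosyltransferase (r = 0.93), and NFKB1, a subunit of NF-kappaB (r = 0.92). RNF187 and B4GALT3 also had their maximum at 6 h, as did 12.2% of 12253 genes. The 3 most like CDKN3 were CYTH1 (r = 0.88), DAP (r = 0.88) and PPP2R5C, a regulatory subunit of protein phosphatase 2A (r = 0.88), and CYTH1 and PPP2R5C had their maximum at 32 h as CDKN3 did. This library, which the paper names as a mild anomaly, held the maximum of 15.8% of 12253 genes, the highest share of the 22. By rank the correlations with CDKN3 were lower, at rho = 0.75 for CYTH1 and 0.77 for both DAP and PPP2R5C. For RNF187, B4GALT3 and NFKB1 with CDKN2C they were 0.93, 0.91 and 0.93. The part of the 32 h library in these correlations was not tested. The long noncoding RNA NORAD (r = 0.87), HINFP (r = 0.81) and ZNG1B (r = 0.81) were most like CDKN1B. The values were lowest for CDKN2D, while those of CDKN1A were close to those of CDKN1B. CD52 (r = 0.83), KIAA1522 (r = 0.82) and SAGE1 (r = 0.81) were nearest to CDKN1A, and KHDC4 (r = 0.77), ICAM5 (r = 0.75) and TCIRG1 (r = 0.73) to CDKN2D. All of these but KHDC4 had their minimum at 22 h, as CDKN1A and CDKN2D did. The share of all genes with their minimum there was not counted, and the part of that library was not tested.

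The main CDKs were each more abundant on average than any of the inhibitors. CDK1, the mitotic kinase, averaged 172.8 FPKM and CDK4 166.8 FPKM, followed by CDK2 at 85.6 FPKM and CDK6 at 47.1 FPKM. CDK7, MNAT1 and CCNH, which form the kinase that activates CDKs, averaged 32.7, 29.9 and 80.9 FPKM. Between days, 2 of 7 were higher and 0 of 7 lower. CDK1 rose by 0.28 ± 0.080 (limma, adjusted p = 0.0265) and CCNH by 0.36 ± 0.073 (adjusted p = 0.00551). The INK4 target CDK4 differed by -0.21 ± 0.10 (adjusted p = 0.170) and CDK6 by 0.08 ± 0.065 (adjusted p = 0.378), neither of which passed. CDK2, the target of CIP/KIP proteins and CDKN3, was the 1 of 7 called for a 24 h rhythm, with an amplitude of 0.15 ± 0.03 and a fitted peak at 3.49 h (adjusted p = 0.0193).

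Cyclins, the activating partners of these kinases, differed in both comparisons. Of 8 cyclins, 2 were higher on the second day, CCND1 by 0.71 ± 0.091 (adjusted p = 0.00035) and CCND2 by 0.33 ± 0.092 (adjusted p = 0.0249), both partners of CDK4 and CDK6. CCND1 was low, from 1.19 FPKM at 4 h to 6.39 FPKM at 38 h. A 24 h rhythm was called for 4 of 8. CCNE2 and CCNE1, partners of CDK2, had amplitudes of 0.37 ± 0.08 and 0.23 ± 0.06 with fitted peaks at 2.01 h and 3.64 h, and CCND1 and CCND3 had amplitudes of 0.26 ± 0.06 and 0.18 ± 0.05. CCNA2, CCNB1 and CCNB2, which act from S phase to mitosis, were not called for a rhythm, but the curve of each differed between days. The amplitude of CCNB1 was 0.92 on the first day and 0.15 on the second (adjusted p = 0.00544).

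**Figure D4:**
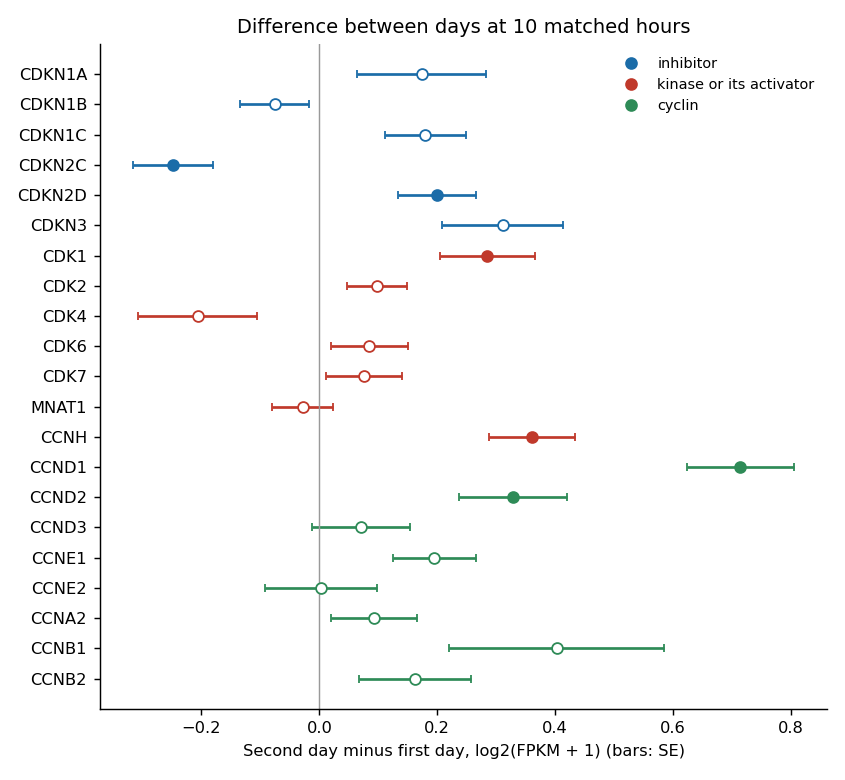
Second day minus first day on the log2(FPKM + 1) scale at 10 matched hours for 6 inhibitors, 7 kinases or their activators and 8 cyclins. Points are limma estimates, bars their SE, and filled points passed an adjusted p of 0.05. CDKN2C at -0.25 is the 1 filled point below 0, and CCND1 at 0.71 is the farthest above.

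Genes that act on or respond to the inhibitors were examined by list. Of 13 retinoblastoma and E2F family genes, 0 were higher and 1 lower on the second day (TFDP1, -0.15 ± 0.048, adjusted p = 0.0463), and 3 were called for a rhythm. E2F1 and E2F2, activators of S-phase genes, had amplitudes of 0.27 ± 0.08 and 0.26 ± 0.04 with fitted peaks at 1.93 h and 1.41 h. Of 15 genes for the degradation of inhibitors, 0 differed between days and 2 had a rhythm, the largest in DTL, which targets CDKN1A protein for destruction (amplitude 0.31 ± 0.06). SKP2 and CKS1B, which recognise CDKN1B protein, averaged 51.6 and 26.2 FPKM and differed between days by -0.08 ± 0.045 and -0.09 ± 0.13, neither of which passed. Of 19 tested regulators of inhibitor transcription, 0 were higher and 1 was lower, SP3 (-0.22 ± 0.052, adjusted p = 0.0115), and 5 had a rhythm, among them MYC, a repressor of CDKN1A (0.22 ± 0.06). FOXO3, an activator of CDKN1B transcription, averaged 2.66 FPKM. Of the G2/M list 20 of 51 were higher and 1 lower, with a median of 0.23 and HMMR at 0.68 ± 0.18 (adjusted p = 0.0207). Of the S-phase list 1 of 41 was higher and 3 were lower, with a median of 0.04, and UNG, a DNA repair enzyme, was at -0.34 ± 0.055 (adjusted p = 0.00131).

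In the anomalous libraries, 4 of the 5 inhibitors left the range of the other 22 time points at 16 h, 18 h or both, as did 66.4% of 12253 genes. CDKN3 went from 21.3 FPKM (14 h) to 38.5 (16 h) and 47.7 (18 h) and returned to 28.6 FPKM (20 h), so that 18 h but not 16 h exceeded its other values. CDKN1B was 14.7, 20.5, 21.6 and 15.4 FPKM at the same times. CDKN1A went the other way, with 1.62, 0.873, 0.298 and 1.26 FPKM, and CDKN2D likewise with 1.96, 1.14, 0.820 and 2.22 FPKM. CDKN2C was 35.3, 34.2, 33.1 and 32.3 FPKM and lay close to the line between its flanks.

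The deviation was taken as the mean distance of both time points from a line drawn through 14 h and 20 h on the log2(FPKM + 1) scale, and it has no replicate check. It was 0.77 for CDKN3, 0.46 for CDKN1B, -0.01 for CDKN2C, -0.64 for CDKN1A and -0.64 for CDKN2D. At 16 other consecutive pairs of time points, CDKN3 deviated between -0.35 and 0.26, CDKN1B between -0.25 and 0.18, CDKN2C between -0.16 and 0.21, CDKN1A between -0.15 and 0.22 and CDKN2D between -0.17 and 0.28. Outside the range of these pairs lay 4 of 5 inhibitors, compared with 71.6% of all genes. None of the 5 was 2-fold or more above or below its flanks, compared with 8.95% and 7.11% of all 12253 genes. This scale understates changes of low genes, and with a pseudocount of 0.1 FPKM CDKN1A was at -1.30 and CDKN2D at -1.03. In that setting 21.6% of all genes were past 2-fold. The median deviation over all genes was 0.14. With median centring, which sets the median level of each library equal, it was 0.02. In that setting CDKN3 was at 0.66, CDKN1B at 0.34 and CDKN2C at -0.12. With upper-quartile scaling CDKN1B was at 0.23 and CDKN2C at -0.23, the latter beyond the unscaled range of its other pairs. CDKN3 and CDKN1B, which lay above their flanks, have transcripts of 42.5% and 46.4% GC. CDKN1A and CDKN2D, which lay below theirs, have 59.4% and 61.4%. CDKN2C, which hardly deviated, has 55.6%. Over 20 bins of genes ranked by GC content, the median deviation went from 0.55 in the lowest bin to -0.83 in the highest. The bin of CDKN2C had a median of -0.25. Whether GC content underlies the deviations was not tested. With the median of its own bin subtracted, CDKN3 was at 0.29, CDKN2C at 0.25, CDKN1B at 0.13, CDKN2D at -0.20 and CDKN1A at -0.26, so CDKN1B lay within the unadjusted range of its 16 other pairs and the other four lay outside theirs.

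**Figure D5:**
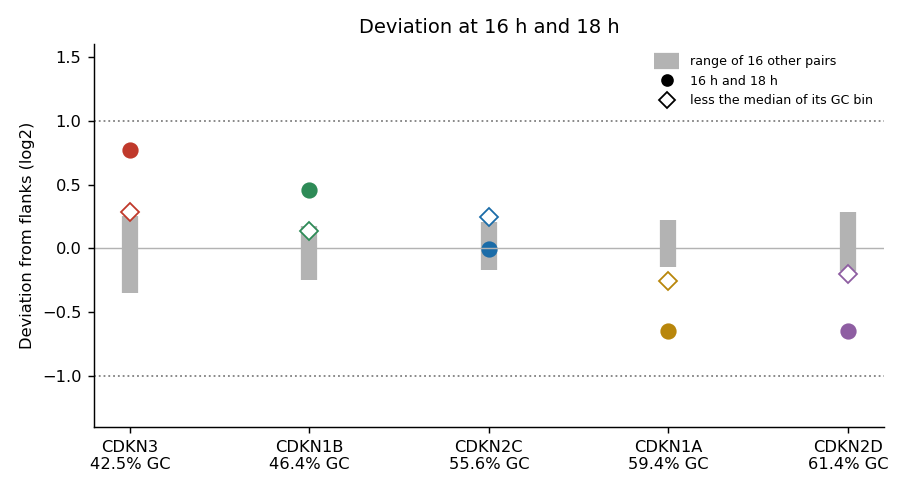
Deviation from the flanks on the log2(FPKM + 1) scale at 16 h and 18 h (filled circles) for the 5 inhibitors, ordered by GC content of their transcripts. Grey bars span 16 other pairs of time points, open diamonds have the median of the gene's GC bin subtracted, and dotted lines mark 2-fold. CDKN3 at 0.77 and CDKN2D at -0.64 stand at opposite ends.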

How the data were processed

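RNA sequencing of 24 samples of K562 cells, 1 per time point, was analysed, with time points taken from the sample labels. The authors aligned reads with STAR to GRCh37 and quantified and normalised them with Cufflinks2 and Cuffnorm per the paper and their processing notes, and other versions are not given in the sources used here. The expression table was deposited as FPKM and used as deposited. A cleaned table was deposited as a score per gene (Z-scores quantile normalised over time points) and served as an alternative. Genes in the table had at least 1 FPKM at 12 or more time points. Depth is unknown: repeated low-value ratios (to 5 digits) made up at most 1.78% per library, so reads were not recovered and no count model was used.

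Symbols came from a table of gene names (12123 of 12285 identifiers), and GC content from GENCODE 29 transcripts on GRCh38. RefSeq promoters were read on GRCh38.p14. CDKN1A overlaps the antisense gene DINOL, which is not in the table, and CDKN1B the intronic AC008115.3 (1.09 FPKM). Strandedness of the counting is not given in the sources used here.

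Tests used limma 3.58.1 in R 4.3.3 on log2(FPKM + 1), keeping the 12253 genes that averaged 1 FPKM or more, and the JTK statistic with 100000 random orderings in Python 3.11.15, with numpy 2.4.6. The p-values were Benjamini-Hochberg adjusted over all genes tested, with a threshold of 0.05. Scripts were tested on simulated data. Named genes were the inhibitors, the 3 genes most like each, all listed kinases and cyclins, up to 3 called genes with the largest change from each other list, and the regulators SKP2, CKS1B, FOXO3 and MYC. Some genes and 1 gene list under this rule are not reported here. Members and lists were chosen with earlier results of these data known. Alternatives were other pseudocounts, filters, scalings, periods and sets of time points.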

Additional observations from a re-analysis of the deposited data

Results flagged for a closer look

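The 24 h curve of 2 inhibitors differed between the days by the interaction test of limma. For CDKN3 the adjusted p was 0.00906, with amplitudes of 0.39 on the first day and 0.02 on the second on the log2 scale. For CDKN1A the adjusted p was 0.0491, with amplitudes of 0.21 and 0.24 and fitted peaks at 6.48 h of the first day and 15.6 h of the second. Each day is a single pass of 10 or 12 time points. The fit had no linear term, so a drift within a day cannot be told apart from a curve. The cause of these differences was not tested.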

How the results depend on the processing

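The comparison between days paired time points 24 h apart, with the matched hour as a block, since each time point had 1 sample and no replicate numbers. For order in time 0 of 5 inhibitors were called under every alternative run (0 of 3 where genes had to average 10 FPKM or more), while the count over all genes fell to 395 with a 20 h period and 447 with a 28 h period. For the 24 h rhythm 1 of 5, CDKN3, was called without 6 h, 16 h, 18 h and 32 h (1448 genes in all) and with upper-quartile scaling (1777). It was also called with a 28 h period (611) and, as 1 of 3 tested, with genes averaging 10 FPKM or more (1408). With a 20 h period the count over all genes was 539. Between days 1 of 5, CDKN2D, was called without matched hours 6, 8, 16 and 18, where 1770 genes were called in all. In 3 other settings the 1 called was CDKN2C. These were a pseudocount of 0.1 FPKM (2385 genes in all), median centring (2579) and, of 3 tested, genes averaging 10 FPKM or more (1331). For the curve between days 1 of 5, CDKN1A, was called with all 24 time points (715 genes in all). Without 6 h, 16 h, 18 h and 32 h the 1 of 5 was CDKN3 (1383 genes in all). At 16 h and 18 h, 2 of 5 were past 2-fold with a pseudocount of 0.1 FPKM, compared with 2652 of 12253 genes (21.6%). Past 1.5-fold were 3 of 5, compared with 4993 of 12253 genes. After subtracting GC bin medians, an alternative chosen after seeing the data like the curve comparison, 1105 genes passed 2-fold and CDKN2C turned from -0.01 to 0.25, by construction of the subtraction. The cause of the other changes was not tested. No difference between days changed direction in any alternative. With unknown depth, counting error of the low CDKN1A and CDKN2D cannot be given.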
